A study of Mus musculus with 15 samples.

Results

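The comparison described here is that of macrophages treated with SNP100 against nontreated macrophages, and its members were the 6 libraries that the sample labels give as SNP100 (3 libraries) or Control (3 libraries), of 15 libraries in the series. The series measured mRNA in RAW 264.7 cells, an established mouse macrophage line derived from a virus-induced tumour, after uptake of silica nanoparticles (SNPs). SNP100 are nonporous Stöber spheres with a nominal diameter of 100 nm, and per the study's methods they were given at 50 µg/mL, the highest dose without toxicity, for 6 h, the time of maximal uptake. The other 9 libraries, 3 each of cells given SNP50, MSNPs or HMSNPs, served for the shared estimate of the spread and for the direct comparison at the end. Both groups were the same line, grown in RPMI with serum, without any genetic change and without a second agent. The controls received no particles of any kind, so that the comparison holds the presence of SNP100 and everything added with it. The labels do not say whether the 3 libraries of a group came from separate cultures, and the p-values therefore measure only the spread between these libraries, which may be technical. A single cell line stands for macrophages here.

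Silica particles enter macrophages by endocytosis and phagocytosis and collect in lysosomes, the acidic organelles that digest what a cell takes up. Lysosomes report their state through the Rag GTPases, which recruit the kinase mTORC1, and through the MiT/TFE transcription factors, which bind the E-box CACGTG in the promoters of lysosomal genes. Macrophages also meet particles with scavenger receptors, and they answer foreign or damaged material with stress genes, cytokines and interferon-stimulated genes.

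The cells were checked against markers of their labelled type. All 16 macrophage markers were detected, among them Lyz2 at 10706 to 15072 CPM (counts per 1000000 of the TMM-adjusted library total) and Csf1r at 2366 to 3138 CPM over the 6 libraries, while Mrc1 stayed between 0.286 and 0.670 CPM. In edgeR's quasi-likelihood test 0 of the 16 were called, 2 were under 0.05 before adjustment, DESeq2 called 1 and limma 4. Over all 19839 tested genes these counts were 181, 2085, 496 and 2032. Of 23 markers of other cell types 7 had enough counts to be tested, and the 7 summed to 2.07 to 3.77 CPM in the controls and to 2.44 to 2.72 CPM with SNP100. Most of this sum was S100a8, at 1.36 to 3.20 CPM over the 6 libraries. Cdh5 lay between 0.136 and 0.434 CPM, and Col1a1, the lowest of the 7, was at 0 in at least 1 of the 6 libraries and at 0.0272 CPM at most.

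The 6 libraries held 32376502 to 39704827 counts on genes each, and the spread between the controls was far wider than that between the SNP100 libraries. The mean chi-square per gene, which is near 1 for sampling noise alone, was 73.1, 192 and 226 for the pairs of controls and 7.49, 10.8 and 13.9 for the pairs of SNP100 libraries. Control replicate 3 stood apart. Ribosomal protein genes took 7.20% of its counts and 4.20% to 4.91% of those of the other 5 libraries, and its short genes lay above its group by a median log2 value of 0.61 and its long genes below it by 0.60. In Control replicate 1 the ribosomal RNA gene Rn18s-rs5 took 1.97% of the counts, against 0.0641% to 0.523% in the other 5 libraries. Counts of called genes are therefore given with each library left out. The library names carry 1 number per group, so that whatever this number stands for cannot be told apart from the treatment.

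With Benjamini-Hochberg adjustment over 19839 tested genes and a limit of 0.05, in the quasi-likelihood test of edgeR, 101 genes (0.509% of the tested genes) were higher and 80 (0.403%) lower in SNP100-treated cells than in nontreated cells, 181 (0.912%) in all. The changes were small, with a median log2 fold change of 0.55 (range 0.27 to 2.07) among the increases and of -0.51 (-1.47 to -0.26) among the decreases. A fitted change of at least 2-fold was reached by 21 genes (0.106%), 13 higher and 8 lower. Of the called genes 173 encode proteins and 5 are lncRNAs, beside 13135 and 2699 of the 19839 tested genes. In these bulk samples fewer cells expressing a gene and less RNA of it per cell cannot be told apart. All 181 called genes had 3 SNP100 libraries on one side of all 3 controls, as did 12.5% of all tested genes (5.34% higher and 7.19% lower). Over all tested genes 46.3% had a log2 fold change above 0 and the median was -0.02.

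**Figure D1:**
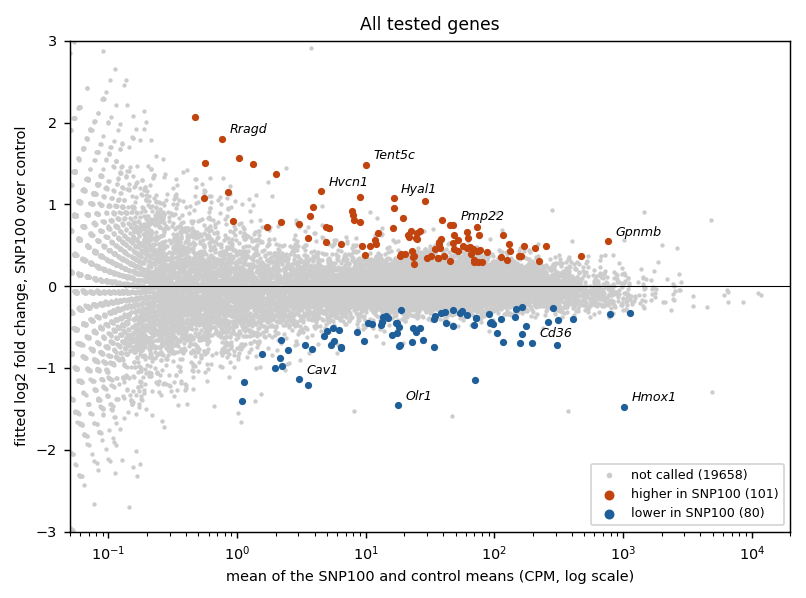
Fitted log2 fold change of SNP100 over control (y axis) against the mean of the SNP100 and control means in CPM (x axis, log scale), with 1 point per tested gene. The 101 called increases and 80 called decreases lie between log2 fold changes of -1.47 and 2.07, and 2566 genes outside the axes, 0 of them called, are not drawn.

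How many genes passed depended on single libraries. Without Control replicate 1, 68 genes were called higher and 40 lower, without Control replicate 2 the counts were 175 and 150, and without Control replicate 3 they were 557 and 455. Of the 181 called genes, 103, 165 and 180 were called in these 3 fits, and 101 (63 higher and 38 lower) were called in each of them. With each SNP100 library left out as well, 55 genes (38 higher and 17 lower) were called in all 6 fits. The lowest counts came without SNP100 replicate 2, where 39 genes were higher and 18 lower. All 181 genes kept their direction in every one of these fits. When the model held only the 6 libraries of the comparison, edgeR called 0 genes, with a smallest adjusted p of 0.144 and 866 genes at an unadjusted p under 0.05, among them all 181. In that fit the spread rests on the SNP100 libraries and the controls alone. The 15-library model applies a shared estimate of the spread to all groups, although the controls spread far wider than the SNP100 libraries. Its adjusted p-values may therefore be too small for this comparison. With all 15 libraries DESeq2 called 247 genes higher and 249 lower, and limma with sample weights, which gave Control replicate 3 a weight of 0.0468, called 1097 and 935. Each gene named below as risen or fallen is a call of the 15-library model, and the library whose absence ended a call is given where there was one. In the closing observations only the number of fits that kept the call is given.

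**Figure D2:**
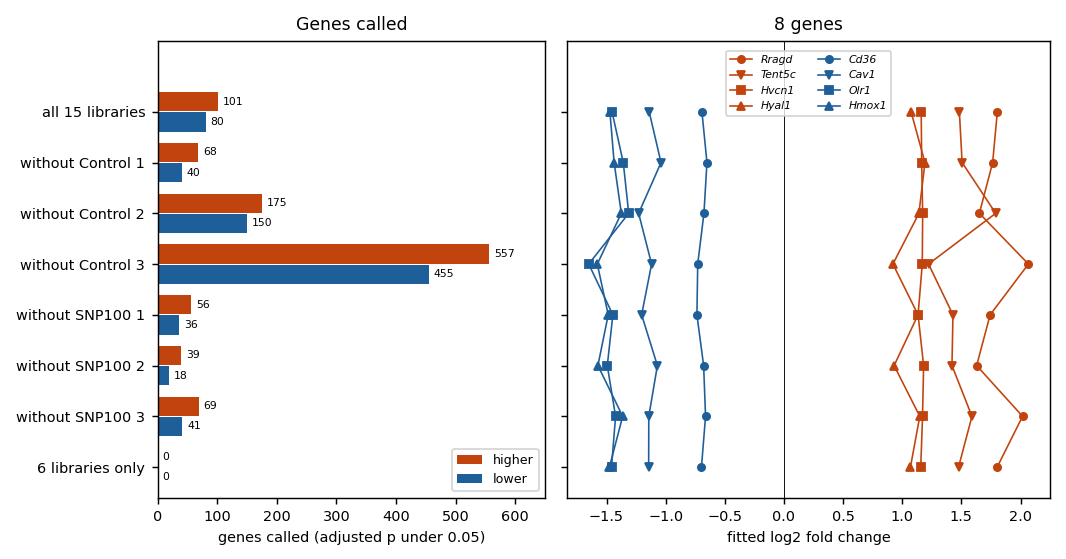
Left, number of genes called higher or lower (x axis) in the model of all 15 libraries, with each of the 6 libraries left out in turn and with only the 6 libraries of the comparison. Right, the fitted log2 fold changes of 8 genes in the same fits, joined by lines; Rragd stayed between 1.63 and 2.07 and Hmox1 between -1.58 and -1.36 without any 1 library.

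By a rule that took the 12 largest increases and 12 largest decreases among called genes with at least 1 CPM in the higher group, 24 genes were chosen for a closer description. Their increases ran from 0.95 to 1.80 and their decreases from -0.78 to -1.47 on the log2 scale. The rule also asked that the groups not overlap, so that the clear separation in the plot of these genes is not a finding of its own.

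**Figure D3:**
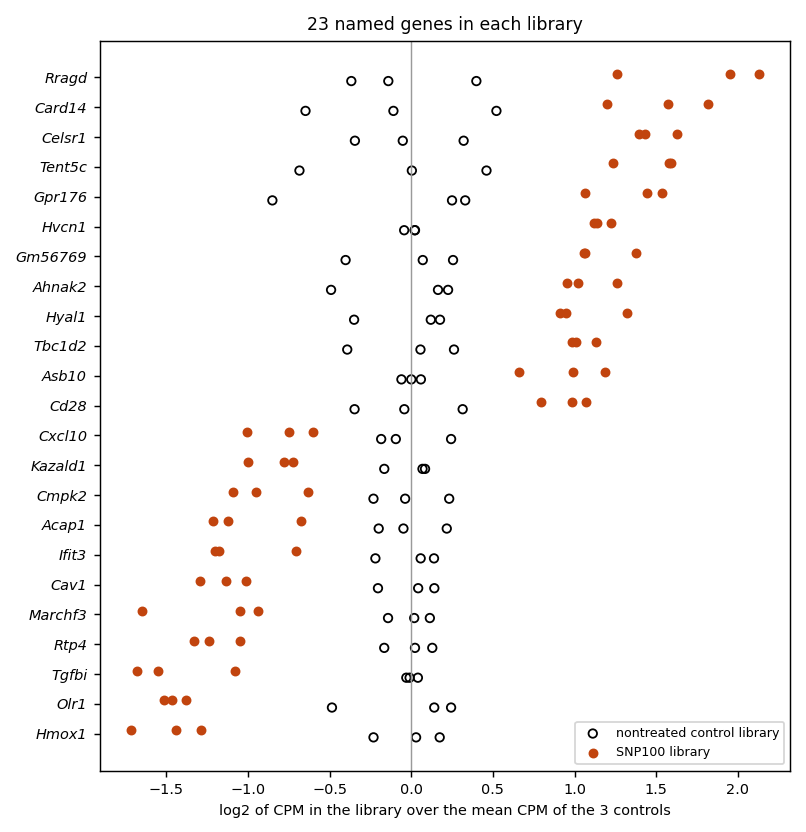
Log2 of CPM in each library over the mean CPM of the 3 controls (x axis) for 23 of the 24 genes (y axis). Open circles are nontreated libraries and filled circles SNP100 libraries, and for each gene the 3 filled circles lie on one side of the 3 open ones, as the rule required.

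Among the 20 genes of MiT/TFE and Rag GTPase nutrient sensing, 4 rose and 0 fell, beside 0.509% and 0.403% of all tested genes. The same shares are the background for every list below, and 46.3% of all tested genes had a log2 fold change above 0. Rragd (ENSMUSG00000028278, chromosome 4, 32982984 to 33025899 of GRCm39), a Rag GTPase that recruits mTORC1 to lysosomes and a target of the MiT/TFE factors, was at 1.3, 1.47 and 0.803 CPM in the SNP100 libraries and at 0.304, 0.26 and 0.443 CPM in the controls. The lowest SNP100 library was well above the highest control, and the log2 fold change was 1.80 (standard error 0.28, adjusted p = 0.00484). It was the largest increase of the 24 genes, from a level under 1 CPM. Rragc, a related Rag GTPase, rose from 135 ± 6.17 to 174 ± 7.1 CPM (SD, n = 3 libraries each), a log2 fold change of 0.36. Flcn, the GTPase-activating protein that acts on these Rag proteins, rose by 0.43 on the log2 scale. Gpnmb, a glycoprotein of lysosomes and melanosomes, was at 929, 956 and 829 CPM with SNP100 and at 630.1, 667 and 560.0 CPM in the controls, the highest level among the called increases, with a log2 fold change of 0.55 with a standard error of 0.07 (adjusted p = 0.00191). Rragd, Flcn and Gpnmb were called without each of the 6 libraries, and Rragc had an adjusted p of 0.062 without SNP100 replicate 2. The transcripts of the factors themselves were not called. Tfeb had a log2 fold change of -0.13, Tfe3 of -0.22 (adjusted p = 0.106) and Mitf of -0.18, and for Tfeb and Mitf the libraries of the groups overlapped. Over the 20 genes 9 were higher and 11 lower, and the median log2 fold change was -0.08, or 0.16 without Control replicate 3, beside -0.02 and 0.00 over all tested genes.

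Of 49 lysosomal hydrolases and membrane proteins, 4 rose and 1 fell, and 33 were higher with a median log2 fold change of 0.07. Hyal1, a lysosomal hyaluronidase (chromosome 9, 107454126 to 107458909 of GRCm39), was at 20.5, 26.5 and 19.97 CPM with SNP100 and at 12, 11.5 and 8.33 CPM in the controls. The groups were clearly apart, with a log2 fold change of 1.07 with a standard error of 0.14 (adjusted p = 0.00128). Hyal1 overlaps Naa80 on the same strand, and the way reads in shared exons were counted is not stated. Naa80 was itself called and had a mean of 24.7 CPM over the 6 libraries, against 16.5 CPM for Hyal1. Whether the 2 calls share reads was not tested. Gla, the alpha-galactosidase that cleaves globotriaosylceramide, rose from 54 ± 6.73 to 75.5 ± 3.76 CPM (SD, n = 3), with an adjusted p of 0.0623 without SNP100 replicate 2. It overlaps Rpl36a and Hnrnph2 on the opposite strand. Naglu, which degrades heparan sulfate, had a log2 fold change of 0.30, and Ctns, the exporter of cystine from lysosomes, one of 0.37. Both were weak calls, lost without any 1 of the SNP100 libraries, with adjusted p of up to 0.13 for Naglu and 0.237 for Ctns, which was lost without Control replicate 1 as well (0.0534) and overlaps Tax1bp3 on the opposite strand. The member that fell was Slc48a1, the heme exporter of the lysosome, described with heme below. The lysosomal protease Ctsd and the membrane protein Lamp1 had log2 fold changes of -0.02 and 0.04, and Mcoln1, the lysosomal calcium channel, one of 0.31 (adjusted p = 0.166). Without Control replicate 3, 13 of the 49 were called higher and 2 lower, beside 557 and 455 of all 19611 genes tested in that fit.

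Of 20 genes listed for proton transport, 2 rose. Atp6v0d2, a subunit of the vacuolar proton pump of macrophages and osteoclasts, was at 46.5, 41.8 and 43.9 CPM with SNP100 and at 32, 32.5 and 26.3 CPM in the controls, a log2 fold change of 0.54. Hvcn1, listed with the pump although it is a voltage-gated proton channel, had libraries closer together than any other of the 12 increases, at 6.53, 6.07 and 6.15 CPM against 2.71, 2.83 and 2.84 CPM. It was 2.23-fold higher (adjusted p = 0.000463), and its log2 fold change stayed between 1.13 and 1.18 without any 1 library. Both genes were called without each of the 6 libraries. Hvcn1 overlaps Tctn1, at 11.1 CPM in the mean of the 6 libraries, on the opposite strand. The other 18 genes, mostly pump subunits, were not called, and over the list 13 were higher and 7 lower. Their median log2 fold change was 0.09, or 0.19 without Control replicate 3. In the latter fit 9 of the 20 were called higher and 1 lower, beside 557 and 455 of all 19611 tested genes. With sample weights limma called 13 of them higher and 1 lower, beside 1097 and 935 of all tested genes.

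The promoters of the called genes were searched for 6 motifs because several groups above and below are known targets of factors with short recognition sequences. The window was the 250 bases before the start of each gene's canonical transcript in GENCODE on GRCm39, both strands were read, and 13135 tested protein-coding genes served as background. The E-box CACGTG was in 15.96% of the promoters of 94 called increases, in 8.86% of those of 79 called decreases and in 7.67% of all 13135. Its longer form TCACGTGA, which contains it, was in 5.32% (5 promoters), 1.27% (1 promoter) and 1.06% (139 promoters). In the same order, the AP-1 motif TGANTCA was in 7.45%, 10.1% and 4.58%, the cyclic AMP response element TGACGTCA in 4.26%, 2.53% and 2.06%, and the antioxidant response element core TGACNNNGC in 10.6%, 8.86% and 10.7%. These 3 begin with the same letters and can overlap. The AP-1 motif was in 0 of the 28 promoters of the AP-1 and immediate early factors themselves. The E-box was in 6 of the 20 promoters of the MiT/TFE and Rag GTPase list, and its longer form in 0 of them. For the 49 lysosomal genes these counts were 8 and 4, and for the 20 genes of proton transport 1 and 0. The promoters below, picked after their values were seen because they show the motif in called genes, are written 5′ to 3′ on the strand of the gene with the motif in capitals. They are the 2 matches before Gla (X:133501964-133501993 and X:133501931-133501960, minus strand), the match before Gpr176 (2:118204503-118204532, minus strand) and that before Rragc (4:123811067-123811166, plus strand):
Gla, first match: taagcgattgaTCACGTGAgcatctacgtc
Gla, second match: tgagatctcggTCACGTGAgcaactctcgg
Gpr176: tgggtcgtgcgTCACGTGAcctcgcctgcc
Rragc: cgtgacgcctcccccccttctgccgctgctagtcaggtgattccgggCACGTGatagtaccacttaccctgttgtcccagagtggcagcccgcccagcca
In Gla and Gpr176 the 8 bases TCACGTGA are complete, and in Rragc only the 6 bases CACGTG are. A match is a run of letters in the window, not a measured binding site.

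Several of the 12 largest increases lie outside the lists. Tent5c (ENSMUSG00000044468, chromosome 3, 100358944 to 100396702 of GRCm39), a poly(A) polymerase of the cytoplasm, was at 15.9, 16 and 12.5 CPM in the SNP100 libraries and at 5.33, 7.32 and 3.31 CPM in the controls. The groups did not overlap although the controls spread widely, and the log2 fold change of 1.48 with a standard error of 0.19 (adjusted p = 0.00144) was 1.79 without Control replicate 2 and 1.22 without Control replicate 3. Tbc1d2, a GTPase-activating protein for Rab7 on late endosomes, was the most abundant of the 12, at 37.9, 41.3 and 37.3 CPM against 19.6, 22.6 and 14.4 CPM, with a log2 fold change of 1.04. Cd28, best known as the costimulatory receptor of T cells, rose from 11.2 ± 2.59 to 21.7 ± 2.08 CPM (SD, n = 3). The T cell genes Cd3e and Cd3g had too few counts to be tested, and Cd4 lay between 0 and 0.0867 CPM in the 6 libraries.

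Gpr176, an orphan G protein-coupled receptor, was at 3.07, 3.27 and 2.35 CPM with SNP100 and 1.34, 1.42 and 0.625 CPM in the controls, a log2 fold change of 1.38. Ahnak2, a very large scaffold protein, had one of 1.09 and lost its call without SNP100 replicate 2 (adjusted p = 0.0546). Asb10, a substrate adaptor of ubiquitin ligases, had one of 0.96 and was called without each of the 6 libraries. Card14, a scaffold that activates NF-kB, rose from 0.53 ± 0.214 to 1.56 ± 0.328 CPM (SD, n = 3), and Celsr1, an atypical cadherin, from 0.695 ± 0.162 to 1.95 ± 0.175 CPM. Both are far less abundant than a gene that overlaps them on the other strand, Sgsh at 75.6 CPM for Card14 and Trmu at 14.8 CPM for Celsr1, in the mean of the 6 libraries. The kit marks strand, but the strand setting used in counting is not stated in the sources used here. Gm56769, a gene without a name, had a log2 fold change of 1.156 at about 1 CPM and was called in only 1 of the 6 fits that left out a library, that without Control replicate 3, with adjusted p of 0.0523 to 0.155 in the other 5.

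Among 28 AP-1 and immediate early factors, 4 rose and 0 fell. Atf3, a repressor of the ATF family that is induced by many stresses, was at 45.4, 48.4 and 45.1 CPM with SNP100 and at 30.8, 31.1 and 31.6 CPM in the controls, a tight difference with a log2 fold change of 0.57 with a standard error of 0.06 (adjusted p = 0.000684). Jun, a partner in the AP-1 dimer, was at 80.5, 76.6 and 80.4 CPM against 59, 57.7 and 57.2 CPM, with a log2 fold change of 0.45. The basic helix-loop-helix repressors Bhlhe41 and Bhlhe40, which bind E-boxes, had log2 fold changes of 0.44 and 0.32. Bhlhe40 lost its call without Control replicate 1 (adjusted p = 0.0665) and without SNP100 replicates 1 and 2, and the other 3 kept theirs in all 6 fits. Fos and Junb were not called, with log2 fold changes of -0.33 and -0.21, and Egr1 had one of 0.56 (adjusted p = 0.154), its libraries not overlapping. The list as a whole had 11 genes higher and 17 lower.

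Of 27 genes of the integrated stress response, 2 rose and 3 fell, and 23 were lower than in the controls with a median log2 fold change of -0.16. Ddit3, which encodes the proapoptotic factor CHOP, was at 14.6, 15.6 and 15.5 CPM with SNP100 and at 9.56, 9.28 and 10.3 CPM in the controls. Its log2 fold change was 0.65 (standard error 0.09, adjusted p = 0.00387). It lies against Mars1 and Mbd6 on the opposite strand, which had means of 184 and 69.4 CPM. Ppp1r15a, the phosphatase subunit that reverses the response, rose by 0.35. Ddit4, an inhibitor of mTORC1, fell from 12 ± 0.468 to 7.54 ± 0.524 CPM (SD, n = 3), or by a log2 fold change of -0.67, and Trib3 and Atf5, targets of ATF4, had log2 fold changes of -0.45 and -0.39. The calls of Ppp1r15a, Trib3 and Atf5 were lost without any 1 of the SNP100 libraries, where the largest adjusted p were 0.115, 0.138 and 0.123, and those of Ddit3 and Ddit4 held in all 6 fits. Atf5 overlaps Nup62, at 161 CPM, on the opposite strand. Atf4 itself had a log2 fold change of -0.10 and the ATF4 targets Chac1 and Asns had -0.24 and -0.22 (adjusted p = 0.474 and 0.259).

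The largest decrease was that of Hmox1 (ENSMUSG00000005413, chromosome 8, 75820241 to 75827217 of GRCm39), heme oxygenase 1, which breaks down heme and is a classical target of NRF2. It was at 555, 616 and 459 CPM in the SNP100 libraries and at 1537, 1699 and 1283 CPM in the controls. All SNP100 libraries were below the lowest control, and the log2 fold change was -1.47 (standard error 0.17, adjusted p = 0.000839), 2.77-fold lower. It stayed between -1.58 and -1.36 with any 1 library left out. Slc48a1, which moves heme out of lysosomes, was at 121, 127 and 113 CPM against 187, 194 and 202 CPM, a log2 fold change of -0.69, and was called in all 6 fits as well. These were the 2 decreases among 18 genes of heme and iron handling, of which 10 were higher and 8 lower. Slc40a1, the iron exporter ferroportin, had a log2 fold change of -0.90 (adjusted p = 0.0844) without overlap of the libraries. The ferritin subunits Fth1 and Ftl1 had -0.11 and -0.05, and 0.16 and 0.23 without Control replicate 3.

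Of 25 NRF2 targets, which detoxify oxidants, 3 fell, 0 rose and 23 were lower, with a median log2 fold change of -0.19 that lay between -0.21 and -0.17 without any 1 control. Gclm, a subunit of the enzyme that starts glutathione synthesis, was at 233, 247 and 211 CPM with SNP100 and at 372, 427 and 338 CPM in the controls. The groups were well apart, with a log2 fold change of -0.72 with a standard error of 0.11 (adjusted p = 0.00484). Akr1b8, an aldo-keto reductase, fell from 125 ± 12.7 to 83.8 ± 4.94 CPM (SD, n = 3), and Pgd, which makes NADPH in the pentose phosphate pathway, fell by a log2 fold change of -0.34 and lost its call without any 1 SNP100 library (adjusted p up to 0.156). Srxn1 had a log2 fold change of -0.34 (adjusted p = 0.059), and Gclc, Txnrd1 and Nqo1 had -0.17, -0.04 and -0.17 with overlapping libraries. In 10 of the 25 genes every SNP100 library was below every control, as in 7.19% of all tested genes.

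The promoter of Hmox1 held 1 E-box within the window, at 8:75820141-75820240 of GRCm39 on the plus strand, shown here because Hmox1 had the largest decrease:
Hmox1: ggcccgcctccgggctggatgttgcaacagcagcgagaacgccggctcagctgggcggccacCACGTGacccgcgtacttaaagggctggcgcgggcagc
The antioxidant response element core was not among these letters, and it was in 4 of the 25 promoters of the NRF2 targets.

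Scavenger receptors and lipid uptake gave 2 decreases and 2 increases among 20 genes. Olr1 (ENSMUSG00000030162, chromosome 6, 129462207 to 129484128 of GRCm39), the receptor LOX-1 for oxidized LDL, was at 9.52, 10.1 and 9.19 CPM with SNP100 and at 29, 31.2 and 18.8 CPM in the controls. The controls differed among themselves, with Control replicate 3 the lowest, yet all stood above every SNP100 library, and the log2 fold change was -1.45 (standard error 0.15, adjusted p = 0.000463). Cd36, a receptor for oxidized lipids and fatty acids, was at 160.4, 148 and 144 CPM against 250.02, 249 and 232 CPM, a log2 fold change of -0.69 (adjusted p = 0.000512). Both were called in all 6 fits. Abcg1, an exporter of cholesterol, rose by 0.52 on the log2 scale and lost its call without SNP100 replicates 1 and 2 (adjusted p = 0.0929 and 0.109). Fabp4, a carrier of fatty acids, rose from 0.289 ± 0.109 to 0.837 ± 0.0675 CPM (SD, n = 3), below the level of the rule, and lost its call without SNP100 replicate 3 (adjusted p = 0.0516). Msr1, the class A scavenger receptor, and Cd68 had log2 fold changes of 0.07 and 0.16 and were not called.

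Tgfbi, an extracellular adhesion protein induced by TGF-beta, was at 0.754, 0.544 and 0.498 CPM with SNP100 and at 1.58, 1.56 and 1.64 CPM in the controls, a log2 fold change of -1.40 that was not called without SNP100 replicate 2 (adjusted p = 0.0574). Of 23 TGF-beta ligands, receptors and targets 2 fell and 0 rose, and Tgfb1 and Tgfbr1 had log2 fold changes of 0.00 and 0.01. Cav1, the coat protein of caveolae, fell from 4.2 ± 0.504 to 1.9 ± 0.183 CPM (SD, n = 3), was called in all 6 fits and was the 1 call among 22 genes of caveolae and clathrin uptake. Its partner Cav2 had a log2 fold change of -0.21 (adjusted p = 0.303).

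Of 29 genes of the actin cytoskeleton and focal adhesion, 5 fell (0.403% over all tested genes), 0 rose (0.509%) and 21 were lower, with a median log2 fold change of -0.17 beside -0.02 over all tested genes. Besides Tgfbi these were Anxa2, a membrane-binding annexin, Zyx, a focal adhesion protein, Actg1, a cytoplasmic actin, and Evl, an actin elongation factor. Anxa2 was at 359, 343 and 359 CPM with SNP100 and at 426, 426 and 548 CPM in the controls, where Control replicate 3 was the highest, and Actg1 was at 1013, 1011 and 979 CPM against 1198, 1213 and 1373 CPM. The log2 fold changes of these 4 genes were -0.40, -0.38, -0.33 and -0.33, and without Control replicate 3 -0.27, -0.37, -0.27 and -0.27. Zyx and Evl lost their calls without Control replicate 1 (adjusted p = 0.10 and 0.125). All 5 calls of the list were lost without SNP100 replicate 2, those of Actg1 and Tgfbi were left without SNP100 replicate 1 and those of Zyx and Tgfbi without SNP100 replicate 3. Without Control replicate 3, 13 genes of the list were called lower, beside 455 of all 19611 genes tested in that fit.

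Of 40 interferon-stimulated genes 36 were lower in SNP100-treated cells, with a median log2 fold change of -0.51 beside -0.02 over all tested genes, and 8 fell while 0 rose. The median lay between -0.56 and -0.45 without any 1 control. In 23 of the 40 every SNP100 library was below every control, as in 7.19% of all tested genes. Rtp4, a chaperone of membrane receptors induced by interferon, was at 2.39, 2.1 and 1.97 CPM with SNP100 and at 4.42, 5.03 and 5.41 CPM in the controls. Its log2 fold change was -1.20 (standard error 0.18, adjusted p = 0.00388), and it was the 1 member called in all 6 fits. Irf7, the factor that amplifies type I interferon, was at 4.79, 4.25 and 5.32 CPM against 7.89, 7.08 and 9.24 CPM, and Irf9, the DNA-binding part of the interferon-stimulated factor ISGF3, was at 14.3, 12.7 and 11.2 CPM against 20.5, 18.6 and 18.5 CPM. Both lie against or within other genes, Irf7 beside Phrf1 on the opposite strand and Irf9 beside Rnf31 on the same strand.

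The other calls of this list were weaker. Ifit3, which binds viral RNA together with its relatives, was at 1.61, 1.14 and 1.163 CPM with SNP100 and 2.89, 2.26 and 2.73 CPM in the controls, a log2 fold change of -1.003 (adjusted p = 0.0259). Cmpk2, a mitochondrial nucleotide kinase, Dhx58, the RNA sensor LGP2, Ifi44 and the chemokine Cxcl10 had log2 fold changes of -0.87, -0.74, -0.57 and -0.78. Without Control replicate 1, 3 of the 8 genes were called, and the adjusted p of Ifit3, Cmpk2, Irf9, Ifi44 and Cxcl10 were 0.0962, 0.0789, 0.0796, 0.0914 and 0.0796. Without Control replicate 2 the call of Cmpk2 was lost (adjusted p = 0.0573), and without SNP100 replicate 1 those of Irf7 and Cxcl10 (0.0507 and 0.0723). Without SNP100 replicate 2 only Rtp4 was called of the 8, and without SNP100 replicate 3 only Rtp4 and Irf7. Without Control replicate 3, 19 of the 40 were called lower, beside 455 of all 19611 genes tested in that fit. Isg15 and Ifit1 had log2 fold changes of -0.66 and -0.71 (adjusted p = 0.202 and 0.289) without overlap, and Stat2, Ifit2 and Usp18 had 0.01, 0.07 and 0.07 with overlapping libraries.

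The core of the interferon-stimulated response element was in 47.5% of the promoters of these 40 genes, in 7.59% of those of 79 called decreases, in 2.13% of those of 94 called increases and in 3.05% of all 13135. It is shown for Rtp4 (16:23428546-23428645 of GRCm39, plus strand), where 3 matches fall in 100 bases and 2 of them overlap, and for Ifit3 (19:34560745-34560844, plus strand), where 2 matches are read on the other strand:
Rtp4: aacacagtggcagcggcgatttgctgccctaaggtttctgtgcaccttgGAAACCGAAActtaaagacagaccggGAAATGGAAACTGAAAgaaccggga
Ifit3: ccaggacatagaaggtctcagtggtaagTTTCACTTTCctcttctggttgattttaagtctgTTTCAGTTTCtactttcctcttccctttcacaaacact
Both genes were picked after their values were seen. The capitals mark the matches, and 19 of the 40 promoters held at least 1.

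Of 35 genes of NF-kB feedback and cytokines 1 rose and 1 fell. Cd83, a surface marker of activated antigen-presenting cells, rose from 19.5 ± 1.2 to 30.6 ± 0.686 CPM (SD, n = 3), or by a log2 fold change of 0.65 (adjusted p = 0.000695) that was called in all 6 fits. Ptgs2, the inducible cyclooxygenase, was at 22.6, 22.7 and 30.8 CPM with SNP100 and at 47.2, 48.2 and 32.2 CPM in the controls, where SNP100 replicate 3 nearly reached Control replicate 3. Its log2 fold change of -0.74 was not called without Control replicates 1 or 2 (adjusted p = 0.142 and 0.0629) or without SNP100 replicates 1 or 2 (0.224 and 0.206). Tnf was at 46, 46.7 and 66.5 CPM against 50.9, 42 and 56.9 CPM, a log2 fold change of 0.09 (adjusted p = 0.841), with groups that overlapped. Il1b stayed under 1 CPM in all 6 libraries, and Nfkbia and Tnfaip3, inhibitors of NF-kB, had log2 fold changes of -0.07 and 0.37.

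Of 23 chemokine ligands and receptors 3 rose and 2 fell. C5ar1, the receptor for complement C5a, was at 88.6, 86.1 and 95.1 CPM with SNP100 and at 141, 129 and 164 CPM in the controls, a log2 fold change of -0.69 with a standard error of 0.09 (adjusted p = 0.00127) that was called in all 6 fits. Ccl3, the chemokine MIP-1 alpha, was at 80.1, 82.2 and 111 CPM against 48, 46 and 71.6 CPM, so that its highest control lay near its lowest SNP100 library. Its call, that of the chemerin receptor Ccrl2 and that of Cxcr4, the receptor for CXCL12, with log2 fold changes of 0.72, 0.80 and 0.49, were lost without Control replicate 1 (adjusted p = 0.0982, 0.0902 and 0.0867) and without SNP100 replicate 2 (0.0691, 0.236 and 0.132). Ccl3 and Ccrl2 were also lost without Control replicate 2 (0.0599 and 0.0558) and SNP100 replicate 3 (0.165 and 0.129), and Cxcr4 without SNP100 replicate 1 (0.0971). Ccl4 had a log2 fold change of 0.46, Ccl2 of -0.40 and Cxcl2 of -0.12, and none of these was called.

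Of 29 p53 targets 1 rose and 2 fell. Plk2, a kinase induced by DNA damage and other stress, was at 6.4, 6.45 and 6.31 CPM with SNP100 and at 4.32, 4.31 and 3.1 CPM in the controls, a log2 fold change of 0.71 with an adjusted p of 0.0574 without SNP100 replicate 2. Cdkn1a, the cell cycle inhibitor p21, fell from 355 ± 47.5 to 266 ± 14.1 CPM (SD, n = 3), or by a log2 fold change of -0.42 that was not called without SNP100 replicates 1 or 2 (adjusted p = 0.0764 and 0.123). Sesn1, a stress-induced inhibitor of mTORC1, fell by a log2 fold change of -0.35 and lost its call without Control replicate 1 and without SNP100 replicate 2 (adjusted p = 0.0549 and 0.0539). Mdm2, the ubiquitin ligase of p53, had a log2 fold change of 0.06. Hk3, a hexokinase of myeloid cells, rose (0.44) and Ankrd37 fell (-0.77) among 30 genes of hypoxia and glycolysis, and Hspa1b fell (-0.51) among 19 cytosolic chaperones of the heat shock response. Without SNP100 replicate 2 the adjusted p of Ankrd37 and Hspa1b were 0.135 and 0.0598, and Ankrd37 was not called without Control replicate 1 or SNP100 replicate 3 either (0.0669 and 0.109). Ankrd37 overlaps the far more abundant Ufsp2, at 70.4 CPM, on the opposite strand.

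The remaining decreases among the 24 genes were Marchf3, an endosomal ubiquitin ligase, Acap1, a regulator of Arf6 in endosomal recycling, and Kazald1, a secreted protein. Acap1 was at 1.27, 1.36 and 1.86 CPM with SNP100 and at 3.44, 2.86 and 2.58 CPM in the controls, Marchf3 at 0.754, 0.817 and 0.498 against 1.58, 1.42 and 1.69 CPM and Kazald1 at 1.17, 1.01 and 1.22 against 2.13, 1.79 and 2.11 CPM. All 3 were lost without Control replicate 1 (adjusted p = 0.125, 0.0911 and 0.0914), without SNP100 replicate 1 (0.192, 0.097 and 0.0922) and without SNP100 replicate 2 (0.174, 0.0788 and 0.146). Marchf3 and Kazald1 were also lost without SNP100 replicate 3 (0.15 and 0.0641), and Marchf3 overlaps the far more abundant Lmnb1 on the opposite strand. Pmp22, a membrane protein first described in peripheral myelin, was at 59.1, 61.3 and 60.3 CPM against 34.1, 33.8 and 39.8 CPM, a log2 fold change of 0.75 with a standard error of 0.07 (adjusted p = 0.00040). Pald1, a phosphatase-like protein, was at 83.5, 79.7 and 75.8 CPM against 107, 109 and 108 CPM, a log2 fold change of -0.44, and both were called in all 6 fits.

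**Figure D4:**
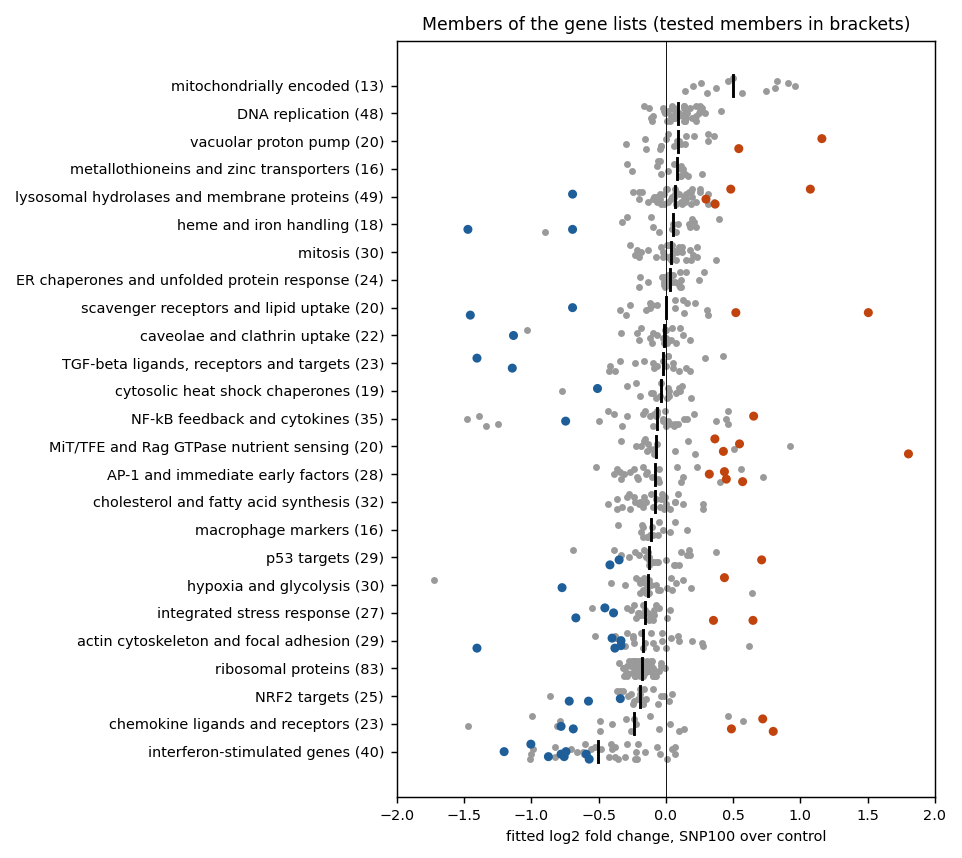
Fitted log2 fold changes of SNP100 over control (x axis) for the tested members of 25 gene lists (y axis, tested members in brackets), with called increases and decreases in colour, other members in grey and a bar at the median. Interferon-stimulated genes have the lowest median, -0.51, and mitochondrially encoded genes the highest, 0.50, and 1 member lies outside the axis.

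Other lists had no call in edgeR's quasi-likelihood test. Over all 19839 tested genes 2085 were under 0.05 before adjustment, and DESeq2 called 496 and limma 2032. Without Control replicate 3 edgeR called 557 of all genes higher and 455 lower. Of 48 DNA replication genes 40 were higher, with a median log2 fold change of 0.09, and 17 had every SNP100 library above every control, as did 5.34% of all tested genes. In that list 0 were called, 18 were higher and 1 lower at an unadjusted p under 0.05, DESeq2 called 11 higher and limma 29, and without Control replicate 3 edgeR called 21 higher. Mcm2, a subunit of the replicative helicase, had a log2 fold change of 0.25 (adjusted p = 0.0879) and the clamp Pcna one of 0.06. Of 30 mitosis genes 19 were higher, 0 were called in edgeR and in DESeq2, 4 in limma, and 4 had an unadjusted p under 0.05. Of 32 genes of cholesterol and fatty acid synthesis 23 were lower, 0 were called, 11 were lower at an unadjusted p under 0.05, and DESeq2 called 2 and limma 6 lower. Of 24 ER chaperones and genes of the unfolded protein response 0 were called, 2 were under 0.05 before adjustment, and DESeq2 called 1 and limma 8 higher. Of 16 metallothioneins and zinc transporters 0 were called, 2 were under 0.05 before adjustment, and DESeq2 called 0 and limma 3.

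Ribosomal protein genes and mitochondrially encoded genes moved with single controls. All 83 ribosomal protein genes had a log2 fold change below 0, with a median of -0.18, but without Control replicate 3 the median was 0.16. In edgeR 0 were called and 1 was lower at an unadjusted p under 0.05, while DESeq2 called 0 and limma 9 higher. Without Control replicate 3 edgeR called 11 higher and 0 lower, beside 557 and 455 of all 19611 genes tested in that fit. In it 57 were higher and 1 lower at an unadjusted p under 0.05. The fit without Control replicate 2 had 0 higher and 44 lower at that limit. All 13 mitochondrially encoded genes had a log2 fold change above 0, with a median of 0.50. This median was 0.21 without Control replicate 2 and 0.71 without Control replicate 1. Of these 13 genes 0 were called, 5 were under 0.05 before adjustment, and DESeq2 called 2 and limma 1. Their share of counts was 1.23%, 0.621% and 1.09% in the controls and 1.21%, 1.78% and 1.72% with SNP100. Genes of different length showed the same dependence. Genes with a mean log2 CPM above 1 were put in 10 equal bins by exonic length. The median log2 fold change was -0.14 in the shortest and 0.12 in the longest, and without Control replicate 3 it was 0.10 and -0.04. The median exonic length was 5500 bases for the called increases, 4944 for the called decreases and 4288 for all tested genes. All tested genes include many of low abundance, with a median control level of 4.07 CPM against 20.7 and 28.6 CPM for called increases and decreases. Among the more abundant genes of the bins, the 5th and 6th had median lengths of 5879 and 6839 bases. The shortest bin held 7 called increases and 11 called decreases, and the longest 4 and 4. The part of the length trend in the calls was not tested beyond the fit with an offset for length, in which 159 of the 181 genes were called.

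The 24 genes were compared directly between SNP100 and the other particles, which differ in dose as well as in kind (SNP50 with a nominal 50 nm at 25 µg/mL, mesoporous MSNPs and hollow mesoporous HMSNPs with a nominal 100 nm at 200 µg/mL). The SNP100 libraries also chose the 24 genes, so that a difference towards the control level is partly set by that choice. Against SNP50 edgeR called 0 of the 24 genes and 0% of all tested genes, with 4 of the 24 at an unadjusted p under 0.05. DESeq2 called 0 of the 24, limma 1, and edgeR 1 without Control replicate 3. Olr1 had a log2 difference of SNP50 from SNP100 of -0.43 (standard error 0.16) and Hmox1 of -0.05 (standard error 0.17), neither of which passed the test. Over the 24 genes the difference lay between -0.69 and 0.37 on the log2 scale, and their 95% intervals (1.96 standard errors on either side) reached from -1.17 to 0.78.

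Against MSNP, where 17.9% of all tested genes were called, 22 of the 24 genes were. Of the 12 increases 11 were further from the controls with MSNP than with SNP100, and Rragd was at 19.5 ± 2.79 CPM (SD, n = 3) with MSNP against 1.19 ± 0.347 with SNP100, a log2 difference of 4.02 (standard error 0.19, adjusted p = 1.70e-09). Gm56769 was the exception, with a log2 difference of -1.64. Of the 12 decreases 9 were further from the controls with MSNP, and Hmox1 was higher than with SNP100, at 938 ± 37.8 CPM (SD, n = 3) against 543 ± 79.2 with SNP100, a log2 difference of 0.79 (standard error 0.17, adjusted p = 0.00412). Olr1 was at 2.29 ± 0.184 CPM with MSNP.

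Against HMSNP, where 4.52% of all tested genes were called, 14 of the 24 genes were. Of the 12 increases 10 were lower with HMSNP than with SNP100, among them Tent5c at 4.13 ± 0.219 CPM (SD, n = 3) against 14.8 ± 1.98 with SNP100, a log2 difference of -1.84 (standard error 0.19, adjusted p = 4.60e-05). Gpr176 and Ahnak2 were not called against HMSNP, with log2 differences of -0.37 and -0.55. Of the 12 decreases Olr1 was lower still with HMSNP, at 5.79 ± 0.717 CPM against 9.6 ± 0.458 with SNP100 (adjusted p = 0.0136), and Acap1, Kazald1 and Hmox1 were higher, Hmox1 with an adjusted p of 0.0488. The other 8 were not called against HMSNP. Counts over all genes moved with Control replicate 3, which belongs to neither group of these comparisons. It enters them through the shared spread, the count filter and the normalization. Without it 85 genes were called against SNP50, 6483 against MSNP and 4006 against HMSNP, where the model of all 15 libraries called 0, 3549 and 897.

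**Figure D5:**
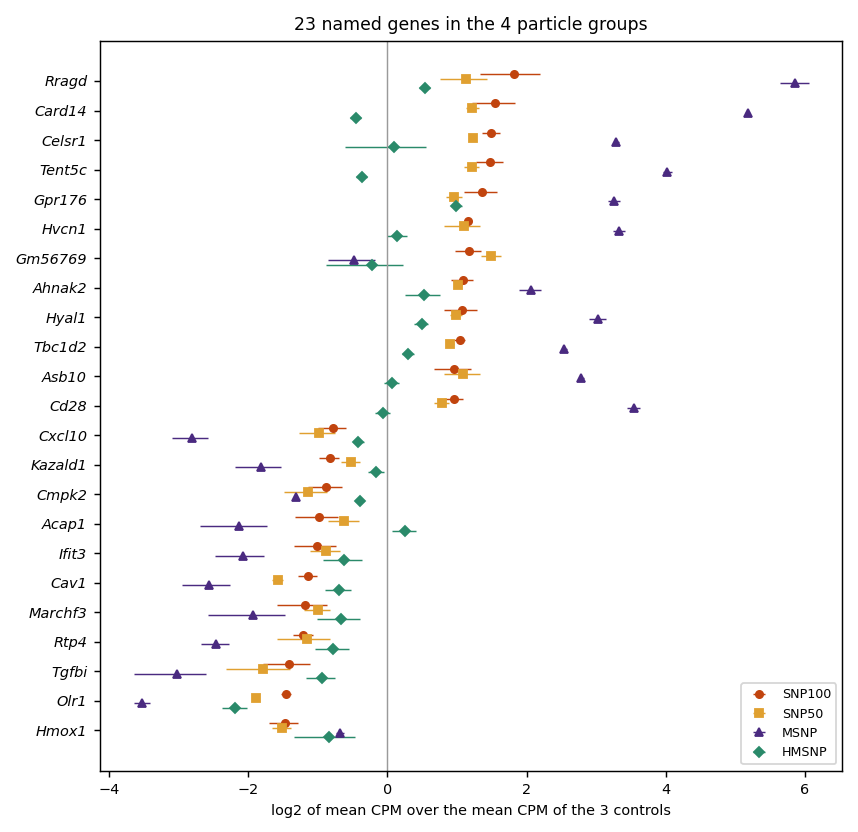
Log2 of the mean CPM in each particle group over the mean CPM of the 3 controls (x axis) for 23 of the 24 genes (y axis), with SNP100 as circles, SNP50 as squares, MSNP as triangles and HMSNP as diamonds, and bars for the SD of 3 libraries. The doses are 50, 25, 200 and 200 µg/mL, and MSNP lies furthest from the controls for 11 of the 12 increases and HMSNP was lower than SNP100 by the test for 10 of them.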

How the data were processed

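Messenger RNA was sequenced from 15 libraries of RAW 264.7 cells, of which the 3 SNP100 and 3 nontreated libraries were compared. Groups were taken from the sample labels, and doses, diameters and times from the study's methods. The authors deposited one table of whole-number counts for each gene, not normalized, with 1 column for each library. Per the submitters' processing notes, cutadapt 1.16, STAR 2.7.9a and featureCounts 1.6.3 were used with GRCm39. The annotation, the strand setting and the choice between reads and read pairs are not given in the sources used here, so that overlaps of named genes with a more abundant gene are given beside them.

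The table lists 57186 genes, of which 30400 had 0 counts in every library and 56630 are in GENCODE vM39 on GRCm39, the source of symbols, positions and promoters. Genes whose counts over the 15 libraries came to 10 or more were tested (19839) in R 4.3.3 with edgeR 4.0.16, by TMM normalization, 1 model of the 5 groups over all 15 libraries, the quasi-likelihood test and adjustment after Benjamini-Hochberg over all tested genes at 0.05. A gene that passed is written as called, risen or fallen. Standard errors were computed from the fold change and its F statistic. The 6 libraries held 32376502 to 39704827 counts each, and 0 called genes had 3 or fewer counts in every library of a group.

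Named genes were the 12 largest increases and decreases among called genes with at least 1 CPM in the higher group and groups that did not overlap, the called members of 24 gene lists, uncalled members that define a list, and Atf3, Pald1 and Pmp22. Results for 2 of these genes are not reported here, although they stay in the counts. The genes, lists and motifs were chosen with earlier results of these data known, and no list was tested as a set. The same-numbered SNP100 and control libraries deviated together with correlations of -0.09, 0.04 and 0.25, and the numbers were not treated as pairs.

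Alternatives were DESeq2 1.42.0, RLE normalization, filterByExpr, no filter, only the 6 libraries, the replicate number as a block, limma 3.58.1 (voom with sample weights), an offset for the trend with transcript length (lowess, span 0.3), that offset without Control replicate 3, and each library left out. The test was tried on simulated data first.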

Additional observations from a re-analysis of the deposited data

How the results depend on the processing

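All 181 called genes kept their direction in all 15 alternatives, and 55 of them were called in the 14 alternatives other than the model of only the 6 libraries. For genes called higher and lower (101 and 80), DESeq2 gave 247 and 249, limma with sample weights 1097 and 935, the length offset 156 and 140, that offset without Control replicate 3 565 and 595, and the model of 6 libraries 0 and 0. The filterByExpr filter gave 127 and 137. RLE factors gave 99 and 81 and no filter 95 and 64. Leaving out 1 library gave 39 to 557 higher and 18 to 455 lower. Genes changed at least 2-fold (21) numbered 325 in limma, 45 with the length offset without Control replicate 3, 0 with 6 libraries and 12 to 44 with 1 library left out. List members called higher and lower (24 and 31) numbered 56 and 71 in DESeq2, 135 and 118 in limma, 38 and 48 with the length offset, 100 and 109 with that offset without Control replicate 3, and 0 and 0 with 6 libraries, and filterByExpr gave 47 lower. With 1 library left out they numbered 13 to 101 and 11 to 97. The share of increases among the calls was 55.8%, 49.8% in DESeq2 and between 53.8% and 68.4% with 1 library left out.

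All 24 named genes were called in DESeq2, in limma, with RLE factors, with either filter and with both length offsets, and 15 to 24 with 1 library left out. In the model of 6 libraries 0 of the 24 were called, with unadjusted p under 0.05 for all 24 and adjusted p of 0.144 to 0.642. Against SNP50, 0 were called, but 1 was in limma, 2 with the length offset without Control replicate 3 and 0 to 1 with 1 library left out. Against MSNP 22 to 24 were called over all settings, and against HMSNP 10 to 19. Over all genes the calls against SNP50, MSNP and HMSNP (0, 3549 and 897) were 115, 7551 and 4868 in limma, 0, 7142 and 4727 with the 6 libraries of each comparison, 196, 6624 and 4099 with the length offset without Control replicate 3, and 1, 3896 and 1395 in DESeq2. Leaving out 1 SNP100 library gave 0 against SNP50, 2729 to 2806 against MSNP and 500 to 582 against HMSNP. With the replicate block 83 genes were called higher and 59 lower, 20 of the 24 named genes among them, and the libraries shared only a number, since of the SNP100 libraries only replicate 3 correlated best with the control of its own number. The median log2 fold change in the shortest and longest bins of genes was -0.01 and -0.02 with the length offset. The number that each group carries in the library names cannot be told apart from its treatment, and a limit set by depth was not tested. The cause of these shifts was not tested.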

Other observations

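The genes of this paragraph were called in the comparison of SNP100 with nontreated cells, lie outside the lists and the rule, and were picked after their values were seen. Clec4n, the C-type lectin Dectin-2, was at 14.9, 14.8 and 12 CPM with SNP100 and at 21.1, 22.8 and 25 CPM in the controls, a log2 fold change of -0.72 (adjusted p = 0.00484), and was called without each of the 6 libraries. Cd207, the lectin langerin, had a log2 fold change of -0.68 and Clec7a, the receptor Dectin-1 for beta-glucan, one of -0.47, and these calls held in 4 and 2 of the 6 fits that left out a library, with adjusted p of up to 0.0865 and 0.0921 in the others. Cd200r4 was at 10.5, 11.6 and 9.03 CPM against 5.48, 5.78 and 5.73 CPM and its inhibitory relative Cd200r1 had a log2 fold change of 0.62, the former called in all 6 fits and the latter in 2. Cd33, a receptor for sialic acid, rose by 0.51 on the log2 scale and was called in 3 of the 6 fits.

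Gas6, the secreted ligand of the TAM receptors that take up dying cells, was at 75, 79.5 and 70.6 CPM with SNP100 and at 47.4, 49.4 and 45.8 CPM in the controls. The groups were far apart, with a log2 fold change of 0.66 with a standard error of 0.07 (adjusted p = 0.00040), and it was called in all 6 fits. Hpgds, a prostaglandin D synthase, Pim1, a kinase induced by cytokines, and Rgs1, a regulator of G protein signalling, rose with log2 fold changes of 0.49, 0.60 and 0.83, all called in all 6 fits. Irf5, an interferon regulatory factor of macrophages, fell from 206 ± 19.9 to 147 ± 5.94 CPM (SD, n = 3), and Rcan1, an inhibitor of calcineurin, from 197 ± 12.1 to 131 ± 9.97 CPM, both called in all 6 fits too. Irf5 overlaps Tnpo3, at 147 CPM in the mean of the 6 libraries, on the opposite strand.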
